A study of Mus musculus with 15 samples.

Results

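The enzymes that write and erase methyl groups on lysine 36 of histone H3 (H3K36) were followed through their transcripts in mouse embryonic stem cells (mESCs) and in embryoid bodies (EBs), the cell aggregates that mESCs form when they differentiate in suspension. The genes were taken by name: Ensembl identifiers of the count files were mapped to GENCODE M21 symbols, which gave 10 genes of the 55471 in each file. They were the methyltransferase genes Nsd1, Nsd2, Nsd3, Setd2, Ash1l and Setmar and the demethylase genes Kdm2a, Kdm2b, Kdm4a and Kdm4c. All 10 passed the count filter in every comparison, with 101 to 10498 reads per gene and library.

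H3K36 methylation marks transcribed and euchromatic chromatin. The NSD proteins and ASH1L mainly add the lower methylation states, while SETD2 travels with elongating RNA polymerase II and adds the trimethyl mark over gene bodies. KDM2A and KDM2B remove the lower states, and KDM4A and KDM4C remove trimethylation from H3K36 and also from H3K9. The marks keep Polycomb repressive complex 2 away from chromatin and recruit DNA methyltransferases through reader domains.

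Poly(A) RNA came from 15 libraries of the E14 mESC line in 5 groups of 3. Embryoid bodies of the NSD1-dTAG knock-in line were differentiated for 6 days with 500 nM dTAG-13 present for those 6 days, or without it. The other groups were NSD1-dTAG mESCs without treatment, wild-type (WT) mESCs given 500 nM dTAG-13 for 72 h, and nontreated WT mESCs, all 3 in 2i/LIF medium. dTAG-13 is a degrader molecule that brings a tagged protein to an E3 ubiquitin ligase, so it acts on NSD1 protein, which was not measured, and Nsd1 transcript counts do not check its loss. Both EB groups and 1 of the mESC groups carry the tag. The labels name the genotype a knock-in and do not say whether the line is 1 clone. No EBs of the WT line and no NSD1-dTAG mESCs given dTAG-13 were used here. The labels call the libraries biological replicates and say nothing of separate cultures, so a p-value here reflects only how far these samples spread.

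Gene counts per library ran between 18704591 and 29103958, and levels are given as CPM, the reads of a gene scaled to a common library total. The 6 mESC markers (Pou5f1, Sox2, Nanog, Zfp42, Klf4, Esrrb) summed to 1331 to 1437 CPM in dTAG-13 EBs, 1659 to 1788 CPM in nontreated EBs and 3661 to 4122 CPM over the 9 mESC libraries. The 6 EB markers (Fgf5, Otx2, T, Eomes, Foxa2, Sox17) summed to 243 to 446 CPM in dTAG-13 EBs, 631 to 1087 CPM in nontreated EBs and 37.4 to 44.7 CPM in mESC libraries. Spike-in counts (ERCC standards) were 0 in all 6 EB libraries and 0.292% to 0.496% of the total in the mESC libraries, so library handling and stage cannot be told apart. In bulk samples, fewer cells of a type and less RNA per cell cannot be told apart either.

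In every group 1 library stood apart, with fewer reads from long genes. The mean exon length of the gene behind a read was 4.99 to 5.50 kb there and 5.71 to 5.93 kb in the other 10 libraries. The libraries that stand apart were replicate 3 of both EB groups and of dTAG-13 WT mESCs, and replicate 1 of NSD1-dTAG and nontreated WT mESCs. They were picked from the counts, as the lowest of their group in this length. Fits without them keep 2 libraries a group with a spread narrowed by that choice, so their adjusted p-values may be too small. Most H3K36 enzyme genes are long, with 10.8 to 17.5 kb of exons for all but Setmar (1.77 kb), Kdm4a (5.78 kb) and Kdm4c (5.82 kb). The library that stands apart held the lowest CPM of its group for 9 of the 10 genes in 4 groups and for 7 of the 10 in nontreated EBs. NSD1-dTAG mESC library 1 was the farthest, with Ash1l at 0.376, Setd2 at 0.471 and Nsd1 at 0.476 times the mean of the other 2 libraries. Over all genes of at least 10 kb of exons the median of that ratio was 0.662, against 1.36 for genes under 2 kb. Fold changes of the 10 genes that change their call without these libraries are given both ways, as are the top of the transcript order and the Nsd2 share.

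**Figure D1:**
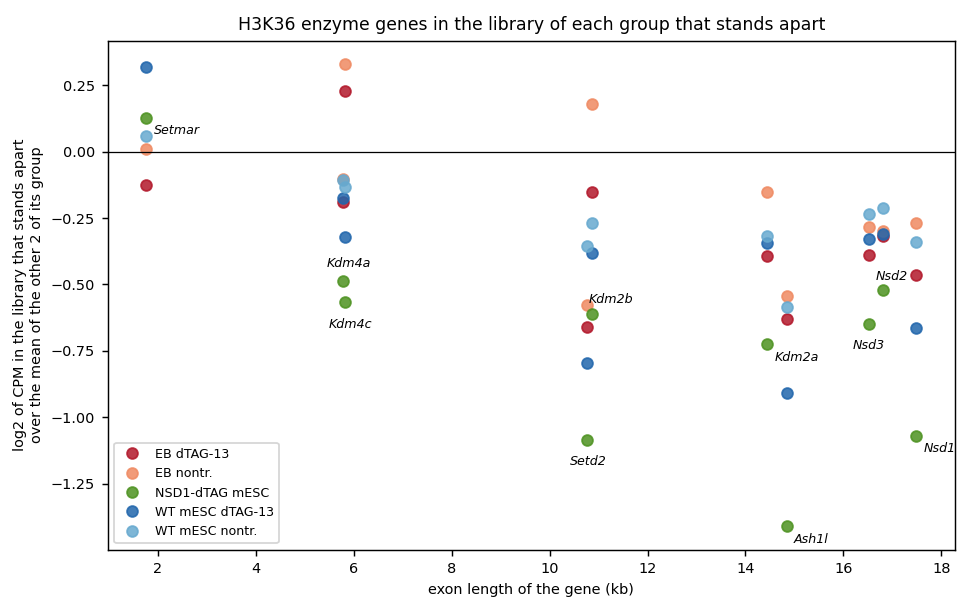
Each point is 1 gene in the library of 1 group that stands apart. The horizontal axis is the gene's exon length in kb and the vertical axis the log2 ratio of its CPM to the mean of the other 2 libraries. In NSD1-dTAG mESCs the ratios reach -1.41 for Ash1l, while the short gene Setmar is at 0.13, and Kdm4c lies above 0 in both EB groups.

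Per unit of exon length, Kdm4c or Kdm4a, erasers of trimethylation, had the highest mean transcript level of the set in each group when all libraries and all annotated exons were used. The level is given in TPM (transcript counts scaled by length to a common total) over the union of annotated exons. Kdm4c led in dTAG-13 EBs at 77.5 ± 4.20 TPM and in nontreated EBs at 65.1 ± 7.63 TPM (SD, n = 3 each). Kdm4a led in the 3 mESC groups, at 71.7 ± 18.5 TPM in NSD1-dTAG, 75.6 ± 8.54 TPM in dTAG-13 WT and 75.8 ± 5.51 TPM in nontreated WT mESCs. The ranges of Kdm4c and Kdm4a did not overlap in dTAG-13 EBs and did in nontreated EBs. Setmar, Nsd3 and Ash1l were the lowest 3 everywhere, between 3.52 and 15.7 TPM per library. Setd2 and Nsd1 stood next to each other in the order of every group and their ranges overlapped, with Setd2 at 59.6 ± 16.4 TPM and Nsd1 at 59.7 ± 12.8 TPM in dTAG-13 EBs. Nsd2 was 5th in both EB groups and 7th in all 3 mESC groups, where Setmar was 8th and below it in every library.

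The top of this order depended on the length and the libraries used, while the lowest 3 genes were the same in every case. Over the longest annotated transcript Nsd2 was 2nd in dTAG-13 EBs at 72.7 TPM, behind Kdm4c at 80.3 TPM. In nontreated EBs it was 1st at 74.1 TPM, ahead of Kdm4c at 67.1 TPM, and in the 3 mESC groups it stayed 7th. In nontreated WT mESCs Nsd1, at 74.4 TPM, was then above Kdm4a, at 70.6 TPM. Over all exons but without the library that stands apart, Setd2 led nontreated EBs at 64.5 TPM, with Kdm4a at 63.4 TPM and Kdm4c at 61.3 TPM. Nsd1 (79.1 TPM) and Kdm4a (79.0 TPM) then had overlapping ranges in nontreated WT mESCs, and Kdm4a was at 82.4 TPM in NSD1-dTAG mESCs. These means of 2 libraries were added after the data had been seen and have no test.

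**Figure D2:**
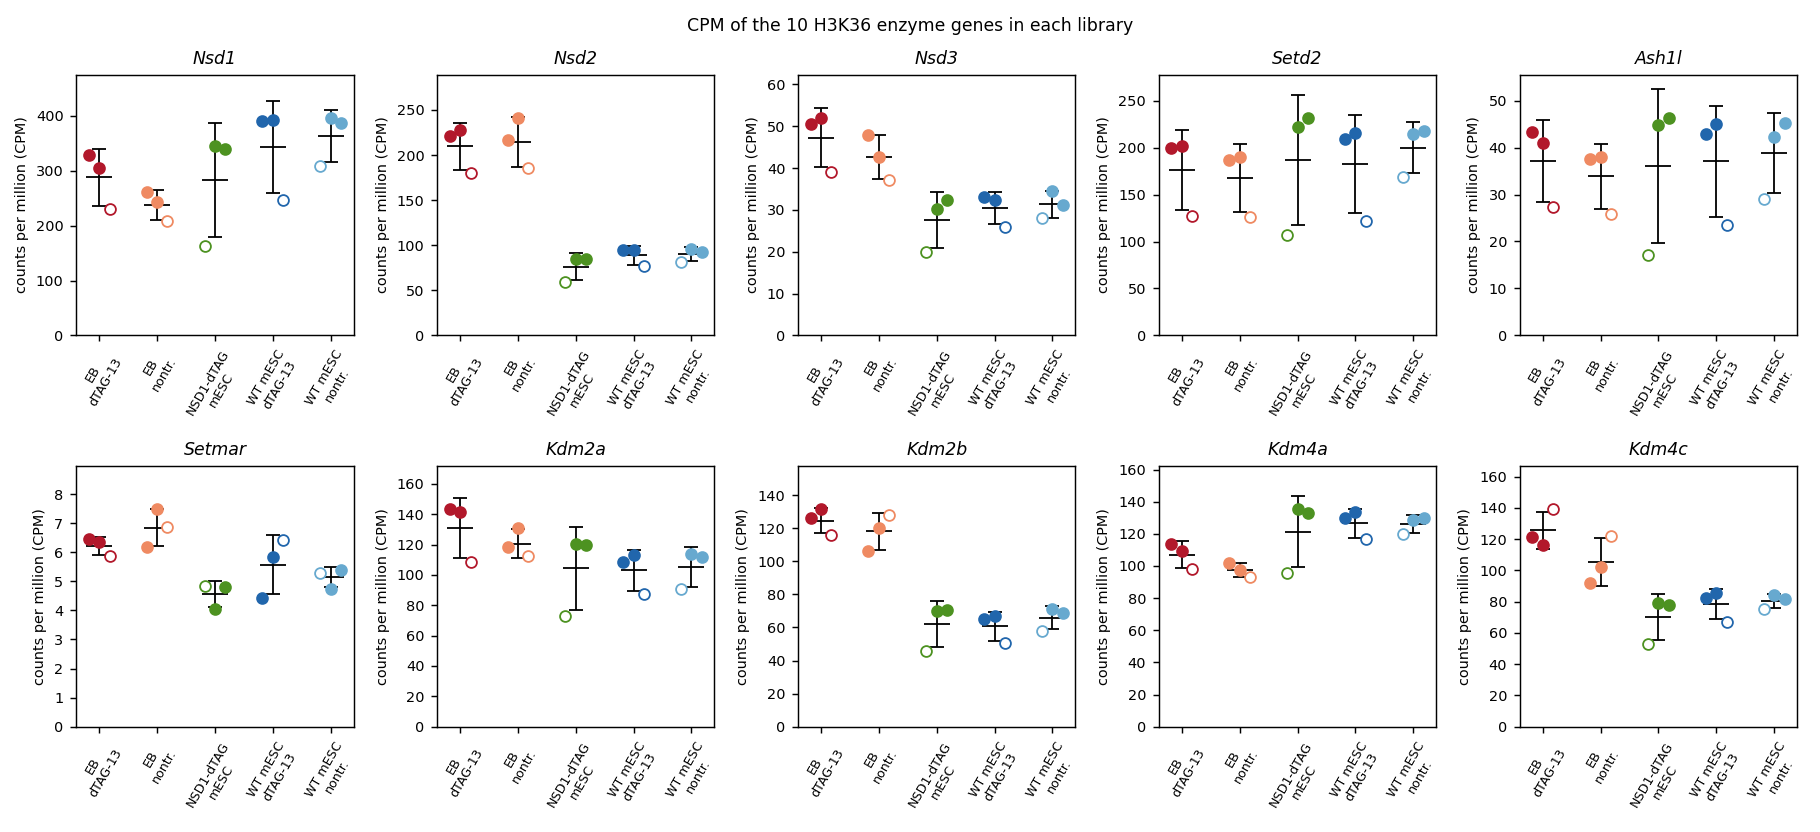
CPM of each gene in each library (vertical axes start at 0), by group on the horizontal axis. Points are libraries, open where the library stands apart, and bars are the mean ± SD of 3. Nsd2 and Kdm2b in the 6 EB libraries lie above all 9 mESC libraries, while Setd2 and Ash1l have 1 low library in each group.

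The comparison of nontreated EBs with nontreated NSD1-dTAG mESCs asks which of these genes differ after 6 days of differentiation. Nsd2, Nsd3, Setmar, Kdm2b and Kdm4c were higher and Kdm4a was lower in EBs by edgeR's quasi-likelihood test with Benjamini-Hochberg adjustment. That is 6 of 10 genes at an adjusted p below 0.05, beside 59.5% of the 15193 genes tested, of which 33.1% were higher and 26.3% lower. Thus the share called among the enzymes was near that of all genes. The median log2 fold change of the 10 was 0.25, against 0.02 for all genes. The same 6 genes had no overlap between the groups in CPM scaled by TMM factors, as had 67.7% of all genes. All 6 mESC markers were lower and all 6 EB markers higher in this comparison, and the part of cell composition in these values was not tested.

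**Figure D3:**
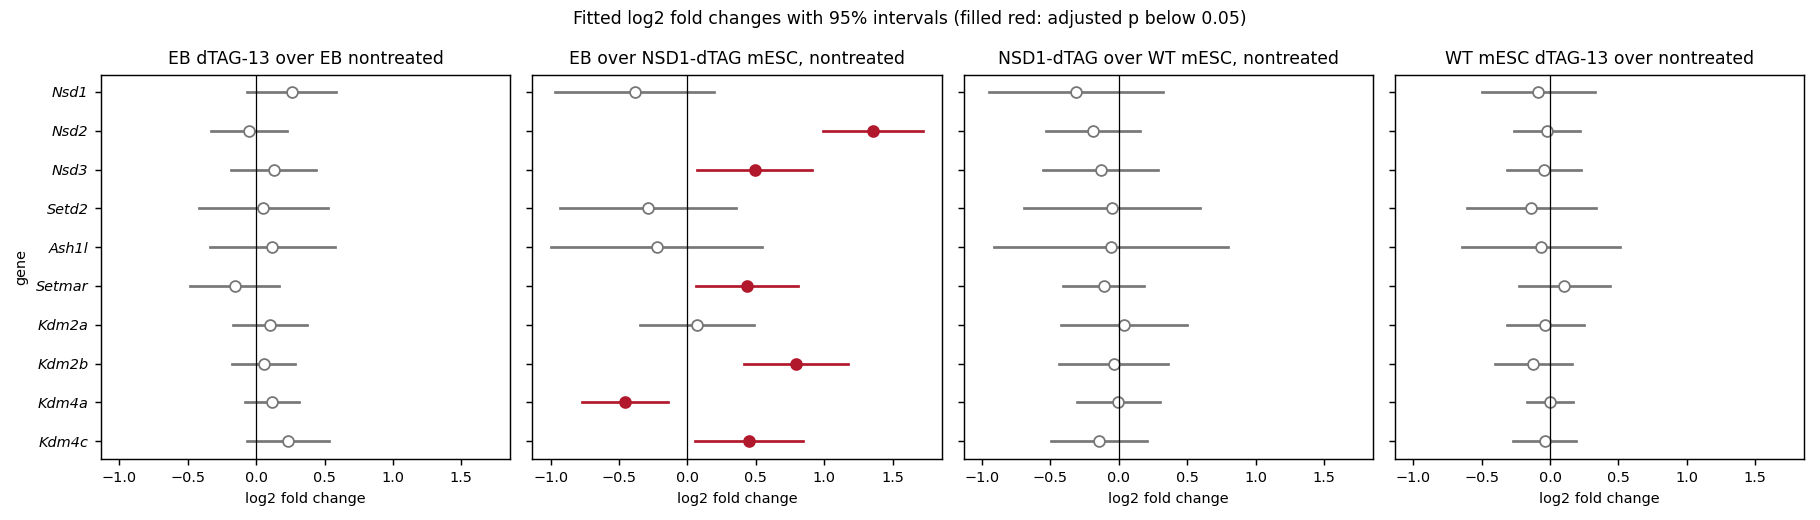
Fitted log2 fold changes (horizontal axis) of the 10 genes with 95% intervals in the 4 comparisons between groups. Filled red points passed an adjusted p of 0.05. They are found in the comparison of EBs with NSD1-dTAG mESCs, with Nsd2 at 1.36 farthest from 0.

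Nsd2 (ENSMUSG00000057406.16, GRCm38 chromosome 5, 33820725 to 33897975, plus strand), the gene of an NSD-family dimethylase, changed most. It had 221, 228 and 180 CPM in dTAG-13 EBs, 217, 241 and 186 CPM in nontreated EBs, and 58.9, 84.5 and 84.8 CPM in NSD1-dTAG mESCs. In WT mESCs it had 94.3, 95.1 and 76.4 CPM with dTAG-13 and 81.2, 96.2 and 92.1 CPM without. The lowest EB library, at 180 CPM, stood above the highest mESC library, at 96.2 CPM. Nontreated EBs were 2.56-fold above NSD1-dTAG mESCs (log2 1.36, SE 0.16, edgeR adjusted p = 1.51e-04). The call held in all 14 alternative fits, with log2 fold changes between 1.01 and 1.45, and was 1.299 without the libraries that stand apart. The exons of Nsd2 share 60 bases, 0.357% of their length, with Nelfa on the opposite strand.

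Nsd1 (ENSMUSG00000021488.8, chromosome 13, 55209782 to 55318325, plus strand) is the tagged gene. Per library it had 329, 306 and 230.0 CPM in dTAG-13 EBs, 261, 243 and 209 CPM in nontreated EBs, 163, 346 and 340.1 CPM in NSD1-dTAG mESCs, 392, 393 and 248 CPM in dTAG-13 WT mESCs, and 309, 396 and 387 CPM in nontreated WT mESCs. Nontreated EBs overlapped NSD1-dTAG mESCs, with mESC library 1 under every EB library and the other 2 above them. The log2 fold change of EBs over mESCs was -0.39 (95% interval -0.97 to 0.20, adjusted p = 0.22, edgeR). Without the libraries that stand apart Nsd1 was lower by edgeR, at log2 -0.58 (adjusted p = 5.21e-05), and a gene-length offset gave -0.69 (adjusted p = 5.07e-04).

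Nsd3 (ENSMUSG00000054823.16, chromosome 8, 25601601 to 25719667, plus strand), the third family member, had 50.5, 52.0 and 39.1 CPM in dTAG-13 EBs, 47.9, 42.7 and 37.2 CPM in nontreated EBs, and 20.0, 30.2 and 32.4 CPM in NSD1-dTAG mESCs. Its WT mESC libraries were at 26.0 to 34.6 CPM. All EB libraries lay above all mESC libraries. The difference between nontreated EBs and NSD1-dTAG mESCs was log2 0.49 (SE 0.18, edgeR adjusted p = 0.0465). The call was made in 7 of 14 alternative fits. With a gene-length offset the value was 0.16 (adjusted p = 0.173), and without NSD1-dTAG mESC library 1 it was 0.29 (adjusted p = 0.0579). It was 0.40 without all those that stand apart (adjusted p = 0.00338).

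The mix of NSD transcripts differed between stages. Of the summed TPM of the 3 NSD genes, Nsd1 made up 51.7% ± 1.86 in dTAG-13 EBs, 47.0% ± 1.80 in nontreated EBs, 71.4% ± 4.31 in NSD1-dTAG mESCs, 73.0% ± 2.80 in dTAG-13 WT mESCs and 74.1% ± 0.99 in nontreated WT mESCs (SD, n = 3 each). Nsd2 made up 39.3% ± 1.68 in dTAG-13 EBs, 44.1% ± 2.32 in nontreated EBs, 21.0% ± 3.45 in NSD1-dTAG mESCs, 20.0% ± 2.12 in dTAG-13 WT mESCs and 19.1% ± 0.74 in nontreated WT mESCs. Every EB library was under every mESC library for Nsd1 and above it for Nsd2. Without the library that stands apart the mean Nsd2 share was 38.6% in dTAG-13 EBs, 44.2% in nontreated EBs, 19.0% in NSD1-dTAG mESCs, 18.8% in dTAG-13 WT mESCs and 18.7% in nontreated WT mESCs (n = 2 each). The ratio of Nsd2 to Nsd1 TPM was 0.699, 0.775 and 0.815 in dTAG-13 EBs, against 0.862, 1.03 and 0.926 in nontreated EBs. These 2 groups did not overlap. The ratio was singled out after its values were seen, so it is given as a description with no test. Over the longest annotated transcript in place of all exons the ratios were 1.10, 1.22 and 1.29 in dTAG-13 EBs, against 1.36, 1.63 and 1.46 in nontreated EBs. Which of the 2 genes is the more abundant in EBs therefore depends on the length used.

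**Figure D4:**
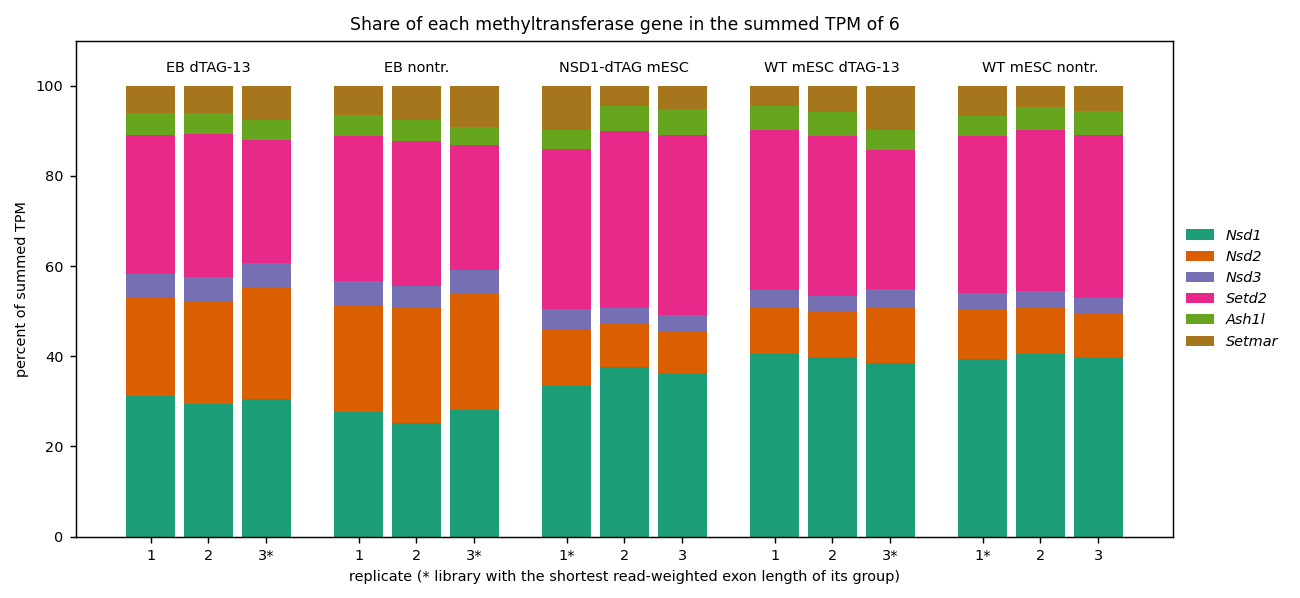
Share of each methyltransferase gene in the summed TPM of the 6 (vertical axis, percent) in each library, with libraries grouped along the horizontal axis. Nsd2 (orange) makes up 21.9% to 25.9% in the EB libraries and 9.37% to 12.6% in the mESC libraries.

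Setd2 (ENSMUSG00000044791.16, chromosome 9, 110532597 to 110618633, plus strand), the gene of the trimethylase, was not called in any comparison. It had 199.8, 202 and 127 CPM in dTAG-13 EBs, 187, 191 and 126 CPM in nontreated EBs, 107, 222 and 232 CPM in NSD1-dTAG mESCs, 209.6, 215 and 122 CPM in dTAG-13 WT mESCs, and 169, 214 and 217 CPM in nontreated WT mESCs. In each group the low value belongs to the library that stands apart, and all groups overlapped. The log2 fold change of EBs over NSD1-dTAG mESCs was -0.29 (95% interval -0.93 to 0.35, edgeR adjusted p = 0.399). Leaving out the libraries that stand apart gave -0.40 (adjusted p = 1.31e-04), and a gene-length offset -0.56 (adjusted p = 0.0152).

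Ash1l (ENSMUSG00000028053.13, chromosome 3, 88950622 to 89079375, plus strand), a Trithorax-group methyltransferase gene, had 43.4, 40.9 and 27.3 CPM in dTAG-13 EBs, 37.7, 38.0 and 25.9 CPM in nontreated EBs, and 17.1, 44.9 and 46.3 CPM in NSD1-dTAG mESCs. WT mESC libraries held 23.4 to 45.1 CPM, so the groups overlapped. EBs differed from NSD1-dTAG mESCs by log2 -0.23 (95% interval -0.998 to 0.55, edgeR adjusted p = 0.586). The value was -0.40 without the libraries that stand apart (adjusted p = 5.72e-04). A stretch of 352 bases, 2.37% of its exons, overlaps Dap3 on the opposite strand.

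Setmar (ENSMUSG00000034639.7, chromosome 6, 108065045 to 108077122, plus strand) encodes a SET domain protein that, in human, is fused to a transposase domain. It had the fewest reads, 101 to 210 per library. Its values were 6.45, 6.35 and 5.87 CPM in dTAG-13 EBs, 6.19, 7.48 and 6.88 CPM in nontreated EBs, 4.84, 4.06 and 4.80 CPM in NSD1-dTAG mESCs, and 4.44 to 6.42 CPM in WT mESCs. EB and NSD1-dTAG mESC libraries did not overlap, while dTAG-13 WT mESC library 3, at 6.42 CPM, lay within the EB range. Nontreated EBs were higher than NSD1-dTAG mESCs by log2 0.44 (SE 0.16, edgeR adjusted p = 0.0452). The call was made in 6 of 14 alternative fits, and without the libraries that stand apart the value was 0.49 (adjusted p = 0.0305).

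Among the demethylase genes, Kdm2b (ENSMUSG00000029475.17, chromosome 5, 122870665 to 122989823, minus strand) changed most. Its protein binds unmethylated CpG through a CXXC domain and brings a Polycomb repressive complex 1 variant to CpG islands. It had 126, 131 and 116 CPM in dTAG-13 EBs, 106, 120.4 and 128 CPM in nontreated EBs, and 45.9, 69.8 and 70.4 CPM in NSD1-dTAG mESCs. WT mESCs had 65.2, 66.6 and 50.6 CPM with dTAG-13 and 58.1, 71.4 and 68.5 CPM without, all below the lowest EB library. Nontreated EBs were 1.73-fold above NSD1-dTAG mESCs (log2 0.79, SE 0.16, edgeR adjusted p = 0.00348), and the call held in all 14 alternative fits at 0.51 to 0.86, with 0.56 without the libraries that stand apart. Its exons overlap Rnf34 by 627 bases (5.77%) and A930024E05Rik by 199 bases (1.83%), both on the opposite strand. A930024E05Rik, an annotated antisense gene, was at 7.90, 8.83 and 13.8 CPM in nontreated EBs and 0.55, 0.54 and 0.24 CPM in NSD1-dTAG mESCs. The counted strand is not stated in the sources used here, so reads of such pairs could be exchanged.

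Kdm2b has several annotated starts, and gene-level counts sum over its 20 annotated transcripts. The counts do not separate the long form, which holds the demethylase domain, from forms that begin downstream. An upstream and an internal start region are therefore shown. The 300 bases run 250 before to 50 after the RefSeq start (GRCm38.p6), 5′ to 3′ on the gene's strand, chr5:122989050-122989349 and chr5:122900301-122900600, both on the minus strand. Capitals mark matches on either strand to 5 searched motifs, with adjoining matches run together. They were the GC box (letters GGGCGG), the box named after its letters CCAAT, the E-box (letters CACGTG), the ETS motif (letters CCGGAAG) and the palindromic NRF1 motif. The ETS and NRF1 motifs had no match in the printed regions.
Kdm2b upstream: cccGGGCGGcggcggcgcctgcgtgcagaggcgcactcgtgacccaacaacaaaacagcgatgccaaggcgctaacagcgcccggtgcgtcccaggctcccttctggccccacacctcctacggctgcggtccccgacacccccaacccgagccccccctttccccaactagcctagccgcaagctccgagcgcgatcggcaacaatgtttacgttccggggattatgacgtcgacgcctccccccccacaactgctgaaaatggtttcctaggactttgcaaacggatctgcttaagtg
Kdm2b internal: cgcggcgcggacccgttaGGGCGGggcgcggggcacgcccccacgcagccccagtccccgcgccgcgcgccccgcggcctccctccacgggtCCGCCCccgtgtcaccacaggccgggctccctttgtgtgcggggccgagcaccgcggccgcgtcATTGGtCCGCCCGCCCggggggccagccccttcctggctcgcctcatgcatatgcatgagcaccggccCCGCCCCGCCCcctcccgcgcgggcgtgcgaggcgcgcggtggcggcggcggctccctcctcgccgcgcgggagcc
The upstream region held 28 CG dinucleotides and 1 GGGCGG match. The internal region held 49 CG, 6 GGGCGG matches and 1 CCAAT match. RefSeq starts at 122988507 (18 CG, no match) and 122900367 (47 CG, 6 GGGCGG matches and 1 CCAAT match) are not printed. No RefSeq start of Kdm2b equals its GENCODE gene start. The median over 32851 mouse promoters of the same length was 7 CG, 35.7% held GGGCGG and 37.4% held CCAAT.

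Kdm4a and Kdm4c are paralogues that were called in opposite directions. Kdm4c (ENSMUSG00000028397.13, chromosome 4, 74242497 to 74405860, plus strand) had 121, 116 and 139 CPM in dTAG-13 EBs, 91.9, 102 and 122 CPM in nontreated EBs, 53.1, 79.2 and 78.0 CPM in NSD1-dTAG mESCs, and 67.2 to 85.4 CPM in WT mESCs. All EB libraries lay above all mESC libraries. Nontreated EBs were higher than NSD1-dTAG mESCs by log2 0.45 (SE 0.17, edgeR adjusted p = 0.0492). In the libraries that stand apart Kdm4c was at 1.26 times the other 2 in EB library 3 and at 0.675 times in mESC library 1, which both widen the difference. Without them the difference was 0.17 (adjusted p = 0.0336), and 4 of 14 alternative fits made the call.

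Kdm4a (ENSMUSG00000033326.15, chromosome 4, 118136957 to 118180043, minus strand) had 114, 109 and 97.9 CPM in dTAG-13 EBs, 102, 97.7 and 92.9 CPM in nontreated EBs, 95.7, 135 and 133 CPM in NSD1-dTAG mESCs, and 117 to 133 CPM in WT mESCs. The WT mESC libraries lay above all EB libraries, and NSD1-dTAG library 1 fell among the EB libraries. It lay above the nontreated EB libraries only when CPM was scaled by TMM factors. Nontreated EBs were lower than NSD1-dTAG mESCs by log2 -0.46 (SE 0.14, edgeR adjusted p = 0.0201), a call made in 9 of 14 alternative fits. The value stayed between -0.62 and -0.41 in all 14, with a largest adjusted p of 0.069. It was -0.56 without the libraries that stand apart (adjusted p = 4.27e-05).

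Start regions of this pair are printed because the paralogues were called in opposite directions. The coordinates are chr4:118179994-118180293 (minus strand) for Kdm4a, and chr4:74242247-74242546 and chr4:74251629-74251928 (plus strand) for the upstream and the downstream Kdm4c start, from RefSeq on GRCm38.p6, with the same capitals.
Kdm4a: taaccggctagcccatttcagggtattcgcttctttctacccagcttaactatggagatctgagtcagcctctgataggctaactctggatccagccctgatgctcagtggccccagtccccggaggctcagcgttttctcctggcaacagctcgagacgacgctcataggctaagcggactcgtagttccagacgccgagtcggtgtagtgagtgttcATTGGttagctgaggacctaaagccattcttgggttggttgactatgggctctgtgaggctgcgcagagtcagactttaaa
Kdm4c upstream: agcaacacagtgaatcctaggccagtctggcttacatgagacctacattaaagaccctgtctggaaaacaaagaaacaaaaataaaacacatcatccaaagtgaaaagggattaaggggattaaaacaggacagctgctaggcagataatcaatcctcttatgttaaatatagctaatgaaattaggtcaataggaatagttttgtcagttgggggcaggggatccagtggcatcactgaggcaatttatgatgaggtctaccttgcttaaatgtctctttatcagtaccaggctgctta
Kdm4c downstream: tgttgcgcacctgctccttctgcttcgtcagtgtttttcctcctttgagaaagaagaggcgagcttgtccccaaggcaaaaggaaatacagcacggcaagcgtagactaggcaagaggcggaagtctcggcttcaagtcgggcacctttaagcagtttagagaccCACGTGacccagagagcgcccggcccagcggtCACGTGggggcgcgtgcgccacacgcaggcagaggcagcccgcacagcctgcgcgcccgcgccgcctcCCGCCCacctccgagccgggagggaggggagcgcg
Kdm4a held 13 CG and 1 CCAAT match. The upstream Kdm4c region held 0 CG and no match, while the downstream one held 28 CG, 2 CACGTG matches and 1 GGGCGG match. At least 1 CACGTG was found in 7.15% of promoters. A match is a description of the letters and the counts do not show which start was used.

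Kdm2a (ENSMUSG00000054611.17, chromosome 19, 4314419 to 4398285, minus strand), the paralogue of Kdm2b, had 143, 142 and 108 CPM in dTAG-13 EBs, 118, 131 and 112 CPM in nontreated EBs, 72.6, 120.5 and 119.7 CPM in NSD1-dTAG mESCs, and 87.4 to 114 CPM in WT mESCs. The groups overlapped. EBs differed from NSD1-dTAG mESCs by log2 0.07 (95% interval -0.35 to 0.49, edgeR adjusted p = 0.756). With a gene-length offset the sign turned, at -0.24 (adjusted p = 0.0387).

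**Figure D5:**
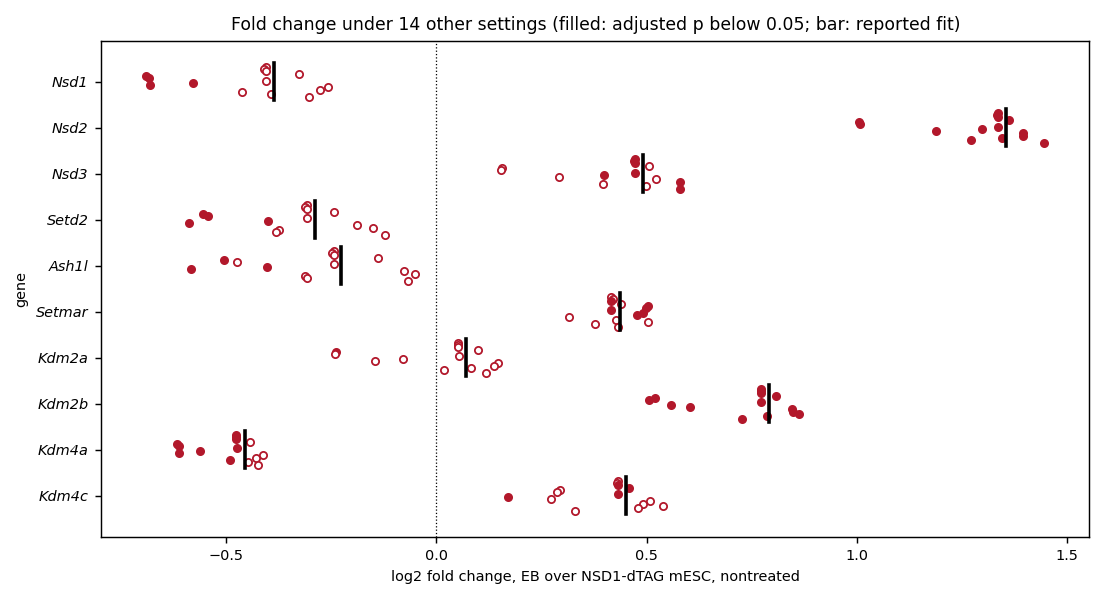
Log2 fold change of nontreated EBs over NSD1-dTAG mESCs (horizontal axis) for each gene under 14 other settings (points, filled where the adjusted p was below 0.05) and in the reported fit (bars). Nsd2 and Kdm2b are filled throughout, and Kdm2a has points on both sides of 0.

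The gene-length offset also changed the balance of calls in this comparison. It gave 3 genes higher and 5 lower, against 5 higher and 1 lower without it. Over all genes it gave 32.8% higher and 34.8% lower, so the balance of all calls also turned towards lower. The long genes Nsd1, Setd2, Ash1l and Kdm2a were then called lower, and Nsd3 and Kdm4c were not called. The offset takes out any difference between libraries that goes with exon length. It cannot tell the libraries that stand apart from a stage difference tied to length. Leaving out the libraries that stand apart, 9 of 10 were called, all but Kdm2a at -0.08, beside 73.2% of all genes.

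In EBs given dTAG-13 for 6 days, no enzyme transcript passed the test against nontreated EBs. edgeR called 0 of 10, beside 6.76% of 15236 genes. None of the 10 had an unadjusted p below 0.05, beside 3313 of all genes. DESeq2 also called 0 of the 10. The log2 fold changes ran from -0.16 (Setmar) to 0.26 (Nsd1), with 8 of 10 above 0 and a median of 0.11, against -0.01 for all genes. All 10 genes overlapped between the groups, while 27.7% of all genes did not. The paired fit on replicate number called 1834 genes in all, against 1030, and none of the 10. The nearest in it were Nsd1 at 0.25 (SE 0.07, edgeR adjusted p = 0.0656) and Kdm4c at 0.24 (SE 0.07, adjusted p = 0.0721).

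Nsd1, whose protein is the target of the compound, averaged 288 ± 51.9 CPM in dTAG-13 EBs and 238 ± 26.5 CPM in nontreated EBs (SD, n = 3 each). The difference was log2 0.26 (95% interval -0.07 to 0.59, edgeR adjusted p = 0.351), and it was higher in 3 of 3 numbered pairs. Kdm4c averaged 126 ± 12.0 CPM in dTAG-13 EBs and 105 ± 15.3 CPM in nontreated EBs. The nontreated EB libraries are the same as those set against mESCs above. The difference of Kdm4c was 0.23 (95% interval -0.07 to 0.53, adjusted p = 0.364), also higher in 3 of 3 pairs. Nsd3, Ash1l and Kdm4a were higher in 3 of 3 pairs too, and the share of all genes with this was not computed. Without the libraries that stand apart (n = 2 each), Nsd1 at 0.32 (adjusted p = 0.0157) and Kdm4c at 0.27 (adjusted p = 0.0244) were called by edgeR as higher. That is 2 of 10, beside 20.9% of all genes in that fit. Nsd2 differed by -0.05 (95% interval -0.33 to 0.23) and Nsd3 by 0.13 (95% interval -0.18 to 0.44), so neither of the other NSD genes was called. The widest interval was that of Setd2, -0.42 to 0.52.

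Cell type markers moved in the same comparison. edgeR called 4 of 6 mESC markers and 2 of 6 EB markers lower in dTAG-13 EBs. The mESC markers were Nanog, Zfp42, Klf4 and Esrrb, and the EB markers were Eomes, a mesendoderm factor gene, and Foxa2, an endoderm factor gene. Eomes was at 36.4, 70.7 and 26.4 CPM in dTAG-13 EBs, against 169, 259 and 124 CPM in nontreated EBs. All 6 EB markers had a log2 fold change below 0. T had the largest, at -4.06, and was not called (edgeR adjusted p = 0.0526). It was at 11.6, 33.8 and 0.27 CPM in dTAG-13 EBs, against 238, 376 and 139 CPM in nontreated EBs. None of the 12 markers was at 0 in an EB library. The part of the markers' cell types in the values of the enzymes was not tested.

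Between NSD1-dTAG and WT mESCs, both nontreated, the question is whether the knock-in itself goes with a change. edgeR called 0 of 10 genes, beside 1.86% of 13895 genes, and DESeq2 called 0 of the 10. None of the 10 had an unadjusted p below 0.05 in edgeR, beside 1957 of all genes. Nsd1 averaged 283 ± 104 CPM in NSD1-dTAG mESCs and 364 ± 47.7 CPM in WT mESCs (SD, n = 3 each), a log2 difference of -0.31 (95% interval -0.95 to 0.32). It was lower in 3 of 3 numbered pairs, as were Nsd2, Setmar and Kdm4c, and the share of all genes with this was not computed. Without the libraries that stand apart 4 of the 10 were called, beside 22.7% of all genes in that fit: Nsd1 at -0.16, Nsd2 at -0.12, Setd2 at 0.10 and Kdm2a at 0.12 (largest adjusted p = 0.023, edgeR). With all libraries these were -0.31 for Nsd1, -0.19 for Nsd2, -0.05 for Setd2 and 0.04 for Kdm2a. The paired fit called 785 genes in all, against 259, and none of the 10.

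In WT mESCs, which carry no tag, dTAG-13 for 72 h gave 0 of 10 calls, with none of the 10 at an unadjusted p below 0.05. Of all 13784 genes, 0% were called by edgeR and none by DESeq2, while 229 had an unadjusted p below 0.05 in edgeR. Log2 fold changes of the enzymes lay between -0.14 (Setd2) and 0.10 (Setmar), and Nsd2 was at -0.02 (95% interval -0.26 to 0.22). No alternative fit called any of them.

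The effect of dTAG-13 in NSD1-dTAG EBs minus its effect in WT mESCs was tested directly, although stage and genotype both differ between the arms. edgeR called 0 of 10 genes, beside 2.88% of 15855 genes, and DESeq2 called 0 of the 10. None of the 10 had an unadjusted p below 0.05 in edgeR, beside 2363 of all genes. The difference was 0.34 for Nsd1 (95% interval -0.19 to 0.87, adjusted p = 0.592) and 0.27 for Kdm4c (95% interval -0.11 to 0.64, adjusted p = 0.537). Nsd1 alone was called, at 0.30, without the libraries that stand apart (adjusted p = 0.0184, edgeR), where 11.9% of all genes were called, and Kdm4c was at 0.25 (adjusted p = 0.0616).

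Other genes around H3K36 methylation were read from a list of 24, of which 23 passed the filter. In nontreated EBs over NSD1-dTAG mESCs, edgeR called 6 higher and 5 lower, which is 47.8% beside 59.5% of all genes. Their median log2 fold change was -0.07, against 0.02 for all genes. The de novo DNA methyltransferase genes were among the higher: Dnmt3a, whose protein reads H3K36 methylation through a PWWP domain, averaged 136 ± 28.6 CPM in EBs and 10.2 ± 2.24 CPM in mESCs (log2 3.60, adjusted p = 3.45e-06). Dnmt3b averaged 882 ± 325 CPM in EBs and 112 ± 18.3 CPM in mESCs (log2 2.84, adjusted p = 3.70e-05). Phf19, whose Polycomb-associated protein has a Tudor domain that binds H3K36 trimethylation, averaged 30.3 ± 7.92 CPM in EBs and 1.45 ± 0.54 CPM in mESCs (log2 4.24). The methyltransferase gene Smyd2 was higher by 1.19.

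Lower genes were Msh6, a mismatch repair gene whose protein has a PWWP domain, at log2 -0.93, and Mtf2, another Polycomb-like gene, at -0.82. Hdgfl2, another PWWP protein gene, differed by -0.48 and the demethylase gene Kdm4b by -0.53. Msh6 averaged 466 ± 32.6 CPM in EBs and 802 ± 39.7 CPM in mESCs. Kdm4b thus fell with Kdm4a, while Kdm4c rose. All 8 of these genes were called in every alternative fit, except Kdm4b without EB library 1 (adjusted p = 0.0585).

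In NSD1-dTAG over WT mESCs 1 of the 23 was called, beside 1.86% of all genes. Dnmt3a had 7.90, 10.2 and 12.4 CPM in NSD1-dTAG mESCs, against 21.3, 22.3 and 26.0 CPM in WT mESCs. The groups did not overlap, and the share of all genes without overlap is not given for this comparison. The gene called was Dnmt3a. It was lower by log2 -1.14 (SE 0.16, edgeR adjusted p = 0.0265), a call made in 9 of 14 alternative fits with a largest adjusted p of 0.145. edgeR called 0 of the 23 in the other comparisons. An unadjusted p below 0.05 was found for 5 of the 23 in dTAG-13 over nontreated EBs, beside 3313 of all 15236 genes. In the difference of the dTAG-13 effects it was found for 4, beside 2363 of 15855 genes. For WT mESCs with dTAG-13 it was 0, beside 229 of 13784 genes. The 5 in EBs were Smyd2 (log2 0.29), Dnmt3a (0.47), Mtf2 (-0.32), Phf19 (-0.63) and Morf4l1 (-0.22). Dnmt3a had 211, 216 and 147 CPM in dTAG-13 EBs, against 122, 118 and 169 CPM in nontreated EBs. Dnmt3b had 1360, 1526 and 986 CPM, against 693, 696 and 1257 CPM. For both genes the order of the groups turned in library 3, the one that stands apart.

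The genes whose CPM most resembled Nsd1 and Nsd2 over the 15 libraries were found by the root mean square difference of centred log2 CPM among 8856 genes. For Nsd1 they were Knl1 at 0.08, Ago3 at 0.11 and Tarbp1 at 0.11, and the closest other H3K36 enzyme gene was Setd2 at 0.18. For Nsd2 they were Igf2bp2 at 0.07, Pde7a at 0.08 and Acvr2a at 0.08, with Kdm2b closest among the enzymes at 0.23. The libraries share depth and the length effect described above, and no test was made on these values.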

How the data were processed

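Total RNA with ERCC spike-in was selected for poly(A) and made into strand-specific libraries, per the labels' protocols. The authors deposited 1 table of raw counts of reads per gene for each library. The submitters' processing notes name STAR and build GRCm38.p6. The strand counted is not given in the sources used here. Of 55471 gene identifiers 55230 matched GENCODE M21. CPM used each library's gene total (18704591 to 29103958), and TPM the union of exons.

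Counts of all genes were tested with edgeR 4.0.16 (quasi-likelihood F test, TMM, filterByExpr, Benjamini-Hochberg over all genes, adjusted p below 0.05) in R 4.3.3, within the groups of each comparison. Alternatives were RLE factors, no filter, DESeq2 1.42.0, a replicate block, an offset for gene length (lowess span 0.3), both together, all 15 libraries in 1 fit, leaving out the 5 libraries that stand apart, and leaving out each library. TPM orders over the longest transcript, and orders and NSD shares without the libraries that stand apart, were added after the data had been seen. The fits of dTAG-13 over nontreated EBs and of the difference of dTAG-13 effects were tested on simulated data. Those data had the same dispersion for every gene and no library that stands apart. They do not show how the fits perform with the spread seen here. No replicate pair agreed within sampling noise.

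Replicate numbers in the labels were checked by correlating deviations from group means. Equal numbers correlated at 0.23, 0.27 and 0.37 in the EB groups and at 0.58, 0.29 and 0.29 in NSD1-dTAG with WT mESCs. Unlike numbers reached 0.17 and 0.25 there. In both of these comparisons the library that stands apart has the same number in each group. In EBs over mESCs and in WT mESCs with dTAG-13 it does not. The highest correlation there, 0.31 and 0.47, was between the libraries that stand apart. The check therefore cannot tell paired replicates from the position of those libraries.

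Named by rule were the 10 genes, up to 4 called genes per direction of a list of 24 H3K36 genes, overlapping genes, the 3 genes nearest to Nsd1 and to Nsd2, and 12 markers. Genes of that list with an unadjusted p below 0.05 in dTAG-13 over nontreated EBs were named in addition. The members and lists were chosen with earlier results of these data known. Promoter sequences came from RefSeq for the 5 of 10 genes with an entry.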

Additional observations from a re-analysis of the deposited data

How the results depend on the processing

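The count of enzyme genes called between nontreated EBs and NSD1-dTAG mESCs was 6, and 3 with a replicate block. Equal replicate numbers of these groups correlated at -0.20, 0.13 and -0.27. Leaving out 1 library gave 2 to 7: 7 without NSD1-dTAG mESC library 1, 2 without its library 2 or EB library 2, and 3 without its library 3 or EB library 1 or 3. Nsd2 and Kdm2b were called in each. Without the libraries that stand apart the counts were 2 for dTAG-13 over nontreated EBs (Nsd1, Kdm4c), 4 for NSD1-dTAG over WT mESCs and 1 for the difference of dTAG-13 effects (Nsd1), each 0 otherwise. The sign turned for Kdm2a in EBs over mESCs with a gene-length offset (-0.24) and for Setd2 in NSD1-dTAG over WT mESCs without the libraries that stand apart (0.10); the cause was not tested. Of the values of single genes and shares, 719 kept their side of the threshold, 30 lost and 17 gained a call, and 22 shares moved with the transcript length used. Of the 711 fold changes among those 719, 86 changed sign, none of them called. The replicate block changed no call of the 10 genes in dTAG-13 over nontreated EBs or in NSD1-dTAG over WT mESCs.

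Over all genes, calls between NSD1-dTAG and WT mESCs numbered 259. They numbered 636 by DESeq2, 785 with the block, 651 with the length offset, 1401 with both, 500 with all 15 libraries in 1 fit, 3123 without the libraries that stand apart, and 1 to 1248 on leaving out a library. For dTAG-13 over nontreated EBs they numbered 1030, with 1686 by DESeq2, 1834 with the block, 1831 with block and offset, 1931 with all 15 libraries, 3233 without the libraries that stand apart and 182 to 1293 on leaving out a library. For the difference of dTAG-13 effects they numbered 456, with 915 without a filter, 799 by DESeq2, 732 with block and offset, 1897 without the libraries that stand apart and 202 to 763 on leaving out a library. In WT mESCs with dTAG-13 they numbered 0, and 16 without the libraries that stand apart. With 3 libraries a group, of which 1 stands apart, the 95% interval of Ash1l in EBs over mESCs ran from -0.998 to 0.55 on the log2 scale.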
